A study of Mus musculus with 2 samples.

Results

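Acetylation of histone tails is set by writers, read by bromodomain proteins and removed by erasers, and 8 mouse genes of this machinery were examined in resting macrophages. They were chosen by name for their function, not by their peaks, but with earlier results of these data known. They comprise the acetyltransferases Ep300 and Crebbp, the bromodomain readers Brd2 and Brd3, the deacetylases Hdac1, Hdac2 and Hdac3, and the corepressor Ncor1. They are 8 of 21938 protein-coding genes on the chromosomes of the annotation (GENCODE M21, GRCm38, the build called mm10 in the labels). The study mapped H3K27ac, an acetyl mark on the tail of histone H3 that accompanies active regulatory DNA, by sequencing the DNA bound by an antibody to it (ChIP-seq). The samples form 1 group of 2 biological replicates: primary macrophages grown from bone marrow of C57BL/6J mice, left without stimulation, whose sex and age the labels do not give. The replicates are separate biosamples that share 1 donor entry in the labels, so their spread may leave out differences between animals. No treatment, genotype or input track was compared here.

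p300 and CBP, the products of Ep300 and Crebbp, are closely related acetyltransferases that place the very mark measured here. Brd2 and Brd3 belong to the BET family, whose paired bromodomains bind acetylated histones and which is the target of BET inhibitors. HDAC1 and HDAC2 work in the Sin3, NuRD and CoREST complexes, while HDAC3 needs a corepressor such as NCoR for its activity and takes part with it in the control of inflammatory genes in macrophages. H3K27ac at a gene marks its regulatory DNA, not the amount of its protein.

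The authors' peak lists held 29543 peaks in replicate 1 and 29345 in replicate 2, with median widths of 898 and 962 bp. The list of peaks called as replicated held 32877 and the list from pooled reads 32909. All 12 macrophage markers examined, among them Spi1, Csf1r and Adgre1, carried a promoter peak in each replicate, with folds of 17.4 to 50.8 in replicate 1. Of 35 markers of 7 other cell types 2 had such a peak, the B cell gene Ms4a1, with folds of 6.37 and 4.86, and the dendritic cell gene Xcr1, with 23.6 and 19.96, inside the range of the macrophage markers. Fold is the authors' value of a peak in the column that its file format gives to enrichment, and it was used only to rank peaks within a list, because no scaling between the lists is stated. A percentile below gives the place of a peak by fold in its own list, with 100 as the highest fold.

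A promoter peak was present in both replicates at 7 of the 8 genes, meaning a peak within 1 kb either side of any annotated start. Over all protein-coding genes this share was 39.4%. Crebbp was the exception and had no promoter peak in any of the 4 lists, as did 55.3% of all protein-coding genes. The 8 genes have from 4 (Hdac2) to 23 (Ncor1) annotated starts, and more starts give a gene more places for such a peak. With the outermost start alone the count was 6 of 8, as Brd3 dropped out. The share of all genes was not computed for that setting. Ep300 and Brd2 ranked in the upper 10% of the list by fold in both replicates, 2 of 8 against 6.44% of all genes. Brd2 alone had a promoter peak of at least 3 kb in both, 1 of 8 against 3.57%. The median over the 7 genes was below that of the 8633 protein-coding genes with a promoter peak in both replicates. In replicate 1 the medians were 63.3 against 69.1 for the percentile and 598 against 1012 bp for the width. In replicate 2 they were 64.4 against 70.4 and 756 against 1116 bp. The genes therefore spread widely, with Brd2, Ep300 and Ncor1 at the top and Brd3 and the 3 deacetylases in the middle ranks with narrow peaks.

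**Figure D1:**
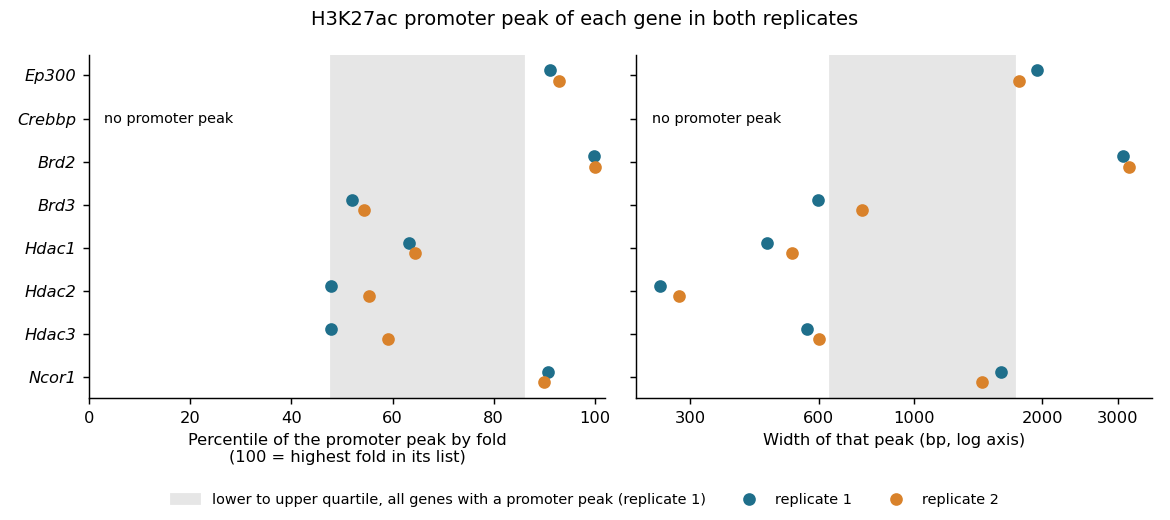
The left panel gives the percentile of each gene's promoter peak by fold within its list, and the right panel its width in bp on a log axis, with 1 point for each replicate. The grey band runs from the lower to the upper quartile of the 8633 genes with a promoter peak in both replicates (replicate 1), and Brd2, Ep300 and Ncor1 lie to its right by percentile while Crebbp has no peak to plot.

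Sequences before the starts of 5 genes are shown first, as examples of DNA under a peak and beside one. The 300 bases just before the outermost start of Crebbp (chr16:4213998-4214297, minus strand) lie in no peak, and the 255 bases of the replicate 1 peak of Hdac2 (chr10:36974254-36974508, plus strand) are its only peak in that replicate. The other 3 are stretches just before the outermost start, free of peaks in both replicates, that part neighbouring promoter peaks of Hdac1 (chr4:129542714-129542831, minus), Ep300 (chr15:81585174-81585316, plus) and Brd2 (chr17:34122687-34122783, minus). All are written 5′ to 3′ on the strand of the gene, from GRCm38, with CG dinucleotides in capitals.
Crebbp upstream: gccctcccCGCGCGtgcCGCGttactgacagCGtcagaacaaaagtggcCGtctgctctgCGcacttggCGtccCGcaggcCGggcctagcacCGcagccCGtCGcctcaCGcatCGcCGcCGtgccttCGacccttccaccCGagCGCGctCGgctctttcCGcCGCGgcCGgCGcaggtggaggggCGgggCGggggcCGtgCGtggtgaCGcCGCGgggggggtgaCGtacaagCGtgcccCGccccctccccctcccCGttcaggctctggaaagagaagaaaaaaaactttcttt
Hdac2 peak: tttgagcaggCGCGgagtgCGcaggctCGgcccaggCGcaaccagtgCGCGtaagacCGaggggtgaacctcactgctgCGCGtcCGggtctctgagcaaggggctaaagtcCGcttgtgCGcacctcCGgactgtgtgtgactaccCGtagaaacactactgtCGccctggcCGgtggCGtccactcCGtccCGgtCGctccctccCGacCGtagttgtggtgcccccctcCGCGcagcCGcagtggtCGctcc
Hdac1 gap: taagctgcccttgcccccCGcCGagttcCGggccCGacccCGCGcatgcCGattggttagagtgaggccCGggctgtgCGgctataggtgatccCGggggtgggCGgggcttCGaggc
Ep300 gap: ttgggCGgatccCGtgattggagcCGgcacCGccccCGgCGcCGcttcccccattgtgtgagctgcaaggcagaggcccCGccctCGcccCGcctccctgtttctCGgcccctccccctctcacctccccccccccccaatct
Brd2 gap: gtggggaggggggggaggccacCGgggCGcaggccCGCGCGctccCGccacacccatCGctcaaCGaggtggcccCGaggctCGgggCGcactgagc
The Crebbp stretch holds 39 CG dinucleotides at a GC content of 70.3%, and the Hdac2 peak holds 27 at 67.5%. CG-rich DNA of this kind is therefore found both with a peak, at Hdac2, and without any, at Crebbp.

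Ep300 was the writer with the mark. The gene lies at chr15:81585351-81652077 on the plus strand (ENSMUSG00000055024.12). Its strongest promoter peak spanned chr15:81586096-81588040 in replicate 1, with a width of 1945 bp and a fold of 21.5, rank 2577. In replicate 2 the width was 1765 bp and the fold 24.0, rank 2066. The peak overlaps an annotated exon of Ep300 and begins 745 bp downstream of the outermost start in replicate 1 and 642 bp in replicate 2. Its width was 1855 ± 127 bp and its percentile 92.1 ± 1.22 (SD, n = 2). Each replicate also had a narrow peak over the outermost start, with folds of 8.78 and 9.72, and another upstream of it, with folds of 14.3 and 11.2. Other annotated starts of Ep300, 27964 to 59499 bp into the gene, had no peak in either replicate.

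Crebbp, the paralogue of Ep300, lies at chr16:4081328-4213997 on the minus strand (ENSMUSG00000022521.10). None of its 8 annotated starts had a peak within 1 kb, and its gene body of 132670 bp held no peak in either replicate. The only peaks within 25 kb of the gene were the pair at the promoter of the neighbouring gene Trap1, a mitochondrial chaperone, with folds of 3.71 and 11.01 in replicate 1 and 4.36 and 11.9 in replicate 2. Upstream of the outermost start the nearest peak was 155403 bp away in replicate 1 and 155544 bp in replicate 2. Downstream it was 135683 and 135609 bp away. These distances were computed after the absence of peaks had been seen. The absence of a listed peak means that no enrichment passed the authors' calling, and the read coverage there was not analysed here.

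**Figure D2:**
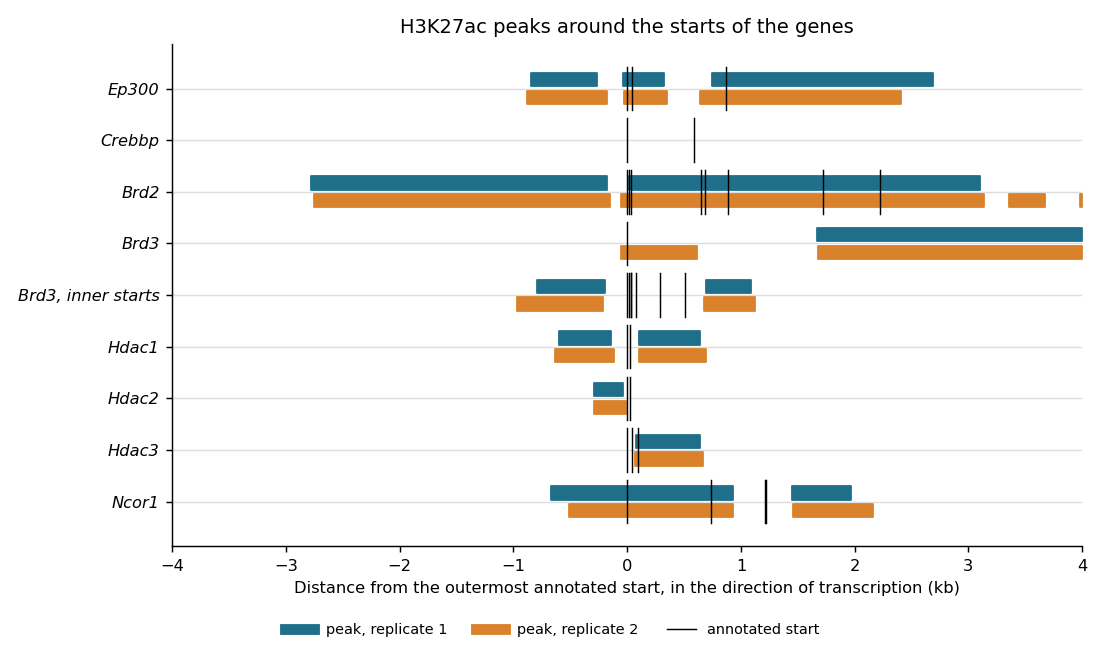
Bars are the peaks of each replicate within 4 kb of the outermost annotated start of each gene, drawn to scale in kb along the direction of transcription, and vertical lines are annotated starts. A further row places Brd3 at its inner group of starts, and the bars of Hdac1 and of the inner Brd3 starts stand on both sides of the starts with a space between them.

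Among the readers, Brd2 carried the strongest promoter peak of the 8 genes. It lies at chr17:34112023-34122634 on the minus strand (ENSMUSG00000024335.20), inside the MHC class II region. The peak at chr17:34119534-34122622 had a width of 3089 bp and a fold of 48.2, rank 35 of the replicate 1 list. In replicate 2 it had a width of 3187 bp and a fold of 52.3, rank 6. A further peak upstream, chr17:34122816-34125412 in replicate 1, had folds of 27.1 and 24.97 and lies over an intron of H2-DMa. H2-DMa, which encodes a chain of a peptide-loading chaperone of MHC class II, has a start within 1 kb of a Brd2 start, so both peaks are assigned to both genes and cannot be divided between them. Within the gene, a start 5439 bp downstream also lay under a weaker peak, with folds of 7.57 and 7.47.

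Brd3 differed from Brd2 in where its mark lay. The gene lies at chr2:27445579-27507662 on the minus strand (ENSMUSG00000026918.16). Its outermost start had a peak in replicate 2 only, with a fold of 4.19. Its promoter peak in both replicates lay at an inner group of 7 starts, 31976 bp downstream, where the stronger of the flanking peaks had a width of 598 bp and a fold of 7.23 in replicate 1 and 756 bp and 7.71 in replicate 2. The strongest peak in the gene was neither of these. It lay in the intron 1672 bp downstream of the outermost start in replicate 1 (chr2:27503114-27505990), with a width of 2877 bp and a fold of 23.5, and in replicate 2 with 2838 bp and 23.6. Its percentiles were 92.9 and 92.6, close to those of the Ep300 promoter peak. It counts as distal because no base of it is within 1 kb of a start of a protein-coding gene. With a promoter window of 2.5 kb it would instead be the strongest promoter peak of Brd3. The 300 bases around its replicate 1 summit (chr2:27504022-27504321, minus strand) are shown because this is the most enriched DNA of the gene, with GGAA, the core of ETS factor sites, or its complement TTCC in capitals.
Brd3 intron summit: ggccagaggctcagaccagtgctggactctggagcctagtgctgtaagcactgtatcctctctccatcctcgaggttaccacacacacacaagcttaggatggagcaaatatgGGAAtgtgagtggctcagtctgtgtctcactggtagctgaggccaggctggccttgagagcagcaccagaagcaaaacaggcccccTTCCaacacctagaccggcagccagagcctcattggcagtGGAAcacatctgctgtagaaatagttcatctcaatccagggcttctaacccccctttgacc
The stretch has 3 such matches and a GC content of 54.3%, against 70.3% before Crebbp. GGAA on either strand occurs in 97.0% of 300 bp windows at the summits of 15069 distal peaks, so its presence does not set the Brd3 peak apart.

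The deacetylases had the narrowest promoter peaks. Hdac1, at chr4:129516104-129542713 on the minus strand (ENSMUSG00000028800.15), had its strongest promoter peak just upstream of the start. It measured 455 bp with a fold of 9.12 in replicate 1 and 518 bp with 9.55 in replicate 2, percentiles 63.3 and 64.4. A peak on the other side of the start had folds of 7.40 and 8.21. The start itself lay between them in a stretch of 245 bp in replicate 1 and 219 bp in replicate 2 without a peak.

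Hdac2, at chr10:36974544-37001889 on the plus strand (ENSMUSG00000019777.16), had a single peak in its whole window of gene body and 25 kb either side. That peak ended 36 bp before the outermost start in replicate 1 and 15 bp before it in replicate 2. Its width was 255 and 282 bp and its fold 6.71 and 7.88, percentiles 47.8 and 55.3. The lowest width of any of the 8633 genes with a promoter peak was 231 bp in replicate 1 and 252 bp in replicate 2, so the Hdac2 peak is near the lower limit of the lists. The next peak downstream of the start was 160708 bp away in replicate 1 and 160926 bp in replicate 2.

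Hdac3, at chr18:37935844-37955016 on the minus strand (ENSMUSG00000024454.16), had 1 promoter peak inside the gene. It measured 562 bp with a fold of 6.71 in replicate 1 and 601 bp with 8.55 in replicate 2, percentiles 47.8 and 59.1. Its place in the list moved most between replicates, 53.5 ± 7.98 (SD, n = 2). Rell2, which encodes a RELT-like protein, has a start within 1 kb, so the peak is assigned to both.

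Ncor1, the scaffold of the HDAC3 complex, lies at chr11:62316426-62458541 on the minus strand (ENSMUSG00000018501.17). Its promoter peak spanned 1603 bp with a fold of 21.0, rank 2739, in replicate 1 and 1445 bp with 20.8, rank 2959, in replicate 2. The percentiles were 90.7 and 89.9, so the peak passed the upper 10% in replicate 1 and just missed it in replicate 2. It covers the outermost start and is shared with Pigl, an enzyme of GPI anchor synthesis that has a start within 1 kb. A weaker peak downstream had folds of 4.65 and 6.37. The rest of the gene body of 142116 bp, with the largest number of annotated starts of the 8 genes (23), held no peak in either replicate.

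Pairs of related genes were set side by side in 4 pairs chosen by function. Both genes of a pair were measured in the same 2 libraries, too few for a test, so the pairs are described by their values. Ep300 had a promoter peak of 1855 ± 127 bp (SD, n = 2) and Crebbp none. Brd2 lay above Brd3 by 48.0 percentile points and 2491 bp in replicate 1 and by 45.7 points and 2431 bp in replicate 2. Hdac1 lay above Hdac2 by 15.5 percentile points and 200 bp in replicate 1 and by 9.09 points and 236 bp in replicate 2. The difference of Hdac3 from its partner Ncor1 was -42.8 percentile points and -1041 bp in replicate 1 and -30.7 points and -844 bp in replicate 2, so Hdac3 was the lower. In the 3 pairs with peaks in both genes the replicate values did not overlap, either for the percentile or for the width.

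Distal peaks, those with no base within 1 kb of a start of a protein-coding gene, were counted in the gene body and 25 kb either side. At least 1 distal peak found in both replicates lay at 5 of the 8 genes, Ep300, Brd2, Brd3, Hdac1 and Hdac3, against 35.1% of all protein-coding genes. The windows held 10 such peaks counted as replicate 1 peaks and 7 counted as replicate 2 peaks. Per 100 kb of window this was 1.13 and 0.789, against 0.885 and 0.850 over all protein-coding genes, so the density was above the background in the first count and below it in the other. The difference between the counts came from Hdac3, where 5 replicate 1 peaks correspond to 2 broader replicate 2 peaks.

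Near Ep300 the distal peak lay in intergenic DNA, 15952 bp upstream of the outermost start (chr15:81567751-81569399 in replicate 1), with folds of 16.2 and 16.1. Near Hdac1 a strong distal peak lay past the 3′ end (chr4:129495677-129498066), with widths of 2390 and 2297 bp and folds of 23.9 and 24.5. That fold was higher than at the Hdac1 promoter in both replicates, but the nearest start is that of Fam229a, 4437 bp away. A weaker neighbour had folds of 7.23 and 8.38. Near Brd2 the distal peak, with folds of 12.6 and 11.9, was nearest to H2-Oa, a regulator of the MHC class II loading chaperone. All the distal peaks near Hdac3 lay in introns of the adjacent gene Diaph1, an actin-nucleating formin. The strongest of them measured 3620 bp with a fold of 17.4 in replicate 1 and 5274 bp with 16.7 in replicate 2. At Ncor1 a weak distal peak in an intron of Pigl was found in replicate 1 only, with a fold of 3.84. Crebbp and Hdac2 had none. Which gene a distal peak acts on was not measured.

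**Figure D3:**
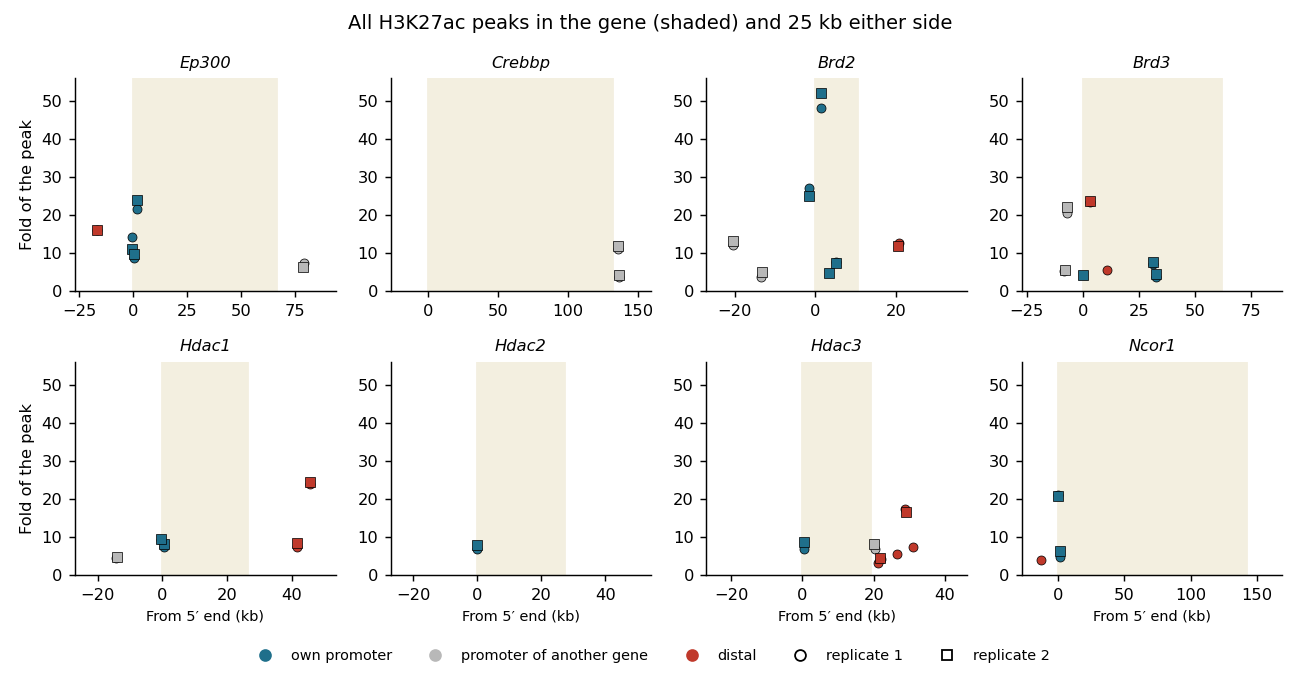
Each panel plots the fold of every peak in a gene (shaded) and 25 kb either side against its distance in kb from the outermost start, with circles for replicate 1 and squares for replicate 2. Red marks are distal peaks, blue are peaks at the gene's own starts and grey are peaks at starts of other genes, and Crebbp has grey marks only.

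The position of the peaks relative to the start was examined next. This measure and the GC comparisons below were chosen after the values had been seen. The base of the outermost start lay inside a peak in both replicates at 2 of the 7 genes with a promoter peak, Ep300 and Ncor1, against 37.9% of the 8633 such genes. At Hdac1, Hdac2 and Hdac3 it lay in no peak of either replicate, and at Brd2 and Brd3 in a peak of replicate 2 only. The shares of all genes with these patterns were not computed. Neighbouring promoter peaks of the same gene were parted by a stretch of at most 1 kb in 6 places in replicate 1 and 8 in replicate 2, at Ep300, Brd2, Brd3, Hdac1 and Ncor1. In every one of these places the stretch without a peak had a higher GC content than both peaks beside it. Over all genes with a promoter peak in both replicates this held for 87% of 3651 such stretches in replicate 1 and 86.7% of 3451 in replicate 2, so it is common to most promoters split in this way. At the named genes, 4 of 6 such stretches in replicate 1 and 3 of 8 in replicate 2 held a start of the gene. The share of stretches with a start was not computed over all genes. The stretches of Ep300 held none. At Hdac1 the GC content of the stretch was 74.7% against 57.7% and 52.1% in replicate 1. At the inner starts of Brd3 it was 74.8% against 56.8% and 59.4%, and all 7 starts of that group lay in the stretch. At Ncor1 it was 76.8% against 61.3% and 52.8%, with 2 inner starts in it.

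Over all genes, GC content above 55% moved with the position of the peaks. In the 1 kb around the outermost start it was 75.4% at Crebbp, 70.8% at Hdac2, 66.9% at Ep300, 66.7% at Brd2, 60.2% at Hdac1, 59.6% at Hdac3, 54.8% at Ncor1 and 49.2% at Brd3. Of genes with a promoter peak, the share with the outermost start inside a peak in both replicates was 50.3% at a GC content under 50%, the bin of Brd3, and 58.3% at 50 to 55%, the bin of Ncor1. It was 11.95% at 65 to 70%, the bin of Ep300 and Brd2, and 4.25% at 70 to 75%, the bin of Hdac2. At 75% or more, the bin of Crebbp, it was 0 of 104 genes. The share of all genes with a promoter peak did not fall in the same way: it was 15.8% under 50%, 42.2% at 50 to 55%, 55.5% at 65 to 70%, 51.8% at 70 to 75% and 54.7% (104 of 190 genes) in the bin of Crebbp. The part of GC content in the position of the peaks, and in the absence of a peak at Crebbp, was not tested.

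**Figure D4:**
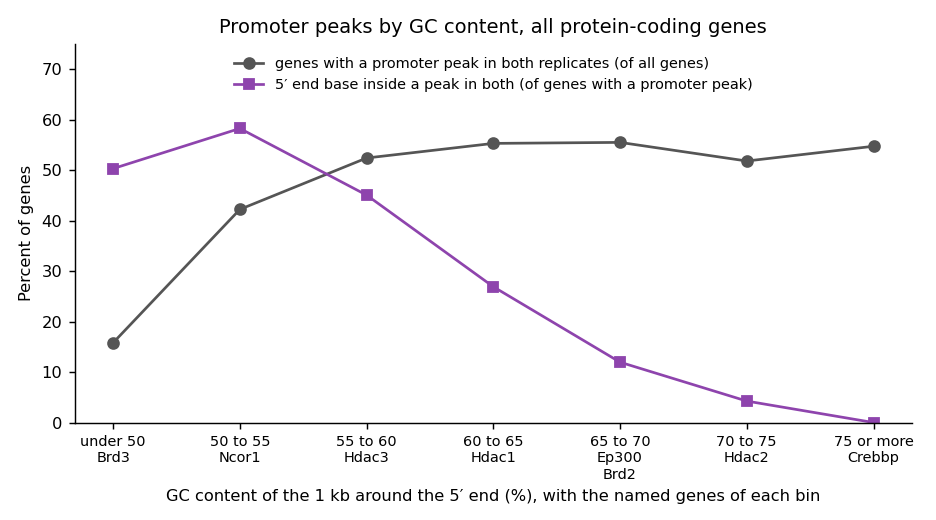
Lines join the percentages of protein-coding genes in 7 bins of GC content of the 1 kb around the outermost start, with the named genes written under their bin. The share with a promoter peak (circles) stays between 51.8% and 55.5% from 55% GC upward, while the share of those genes with the start inside a peak (squares) goes from 45.1% to 0 over the same bins.

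Short motifs were counted on both strands in RefSeq promoters of 300 bp (GRCm38), which held an entry for 6 of the 8 genes. At distal peaks only the 300 bp around the summit were counted, so matches elsewhere in a peak are left out. GGGCGG, the core of SP1 sites, was in 7 of the 9 entries of these genes, against 35.7% of 32851 promoter entries, and each of the 6 genes had it in at least 1 entry. The GC content of the 9 entries ran from 38.3%, at an inner start of Ncor1, to 82.0% at Crebbp, against a median of 52.7% over all promoters. The part of base composition in the SP1 count was not tested. GAGGAA, the core of sites of the macrophage factor PU.1, was in the promoter of Ep300 alone, 1 of 9 entries against 28.3%. It was in 5 of the 10 distal peaks against 30.0%, and 3 of those 5 are among the replicate 1 peaks near Hdac3 that replicate 2 lists as 2 peaks. It contains GGAA, which was in 8 of 9 entries against 96.0% and in 10 of 10 distal peaks. CCAAT, bound by NF-Y, was in no promoter entry against 37.4%, and in 4 of 10 distal peaks against 30.4%. All of these distal peaks but that of Brd3 are among the same replicate 1 peaks near Hdac3. The promoter entries need not sit at the outermost start. That of Ep300 (chr15:81585964-81586263) lies downstream of it, and Hdac1 has no entry. The stretches shown above before the outermost starts of Ep300 and Hdac1 do hold CCAAT or its complement ATTGG. The E-box CACGTG was in no entry against 7.15%, and in 1 distal peak, near Hdac3, against 3.90%. The AP-1 site TGAGTCA was in no entry against 5.202%, and in 1 distal peak, also near Hdac3, against 6.55%. GGGCGG was in 2 distal peaks against 5.31%. The full CRE site TGACGTCA, at 1.79% over all promoters, and the C/EBP palindrome TTGCGCAA, at 0.183%, were in no promoter entry and at no distal summit. A match of letters is a description and does not show that a factor was bound.

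The 8 genes were set beside 71 other genes of the same machinery. In both replicates a promoter peak was listed at 54 of these (76.1%), and 12 had none in either replicate. By class, the genes with a peak in both were 9 of 11 other writers (81.8%), 15 of 21 readers (71.4%), 8 of 13 erasers (61.5%) and 22 of 26 corepressor subunits (84.6%). Ep300, at percentiles of 91.2 and 92.9, stood above the other writers, of which none was in the upper 10% in both replicates. The other writers highest by fold in the replicated list were Kat5 (20.1 and 19.3 in the replicates) and Kat7 (16.3 and 15.6), catalytic subunits of the TIP60 and HBO1 complexes. Kat6b, another acetyltransferase, was the other writer that like Crebbp had no promoter peak in either replicate.

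Among the readers Brd2 had the highest fold, ahead of Brpf1 (29.6 and 31.2), a scaffold of acetyltransferase complexes, and Brd8 (22.03 and 25.8), a subunit of the TIP60 complex. Brdt, Cecr2, Mllt1, Yeats2 and Trim24 had no promoter peak in either replicate. Of the other erasers the sirtuin Sirt6 (20.6 and 25.1) was among those with folds above those of Hdac1, Hdac2 and Hdac3. For the 8 other erasers with a peak in both replicates, the median percentile was 71.02 in replicate 1 and 75.02 in replicate 2. Hdac1, the highest of the 3 deacetylases, lay below it at 63.3 and 64.4. Sirt7 had 9.64 and 11.2, at peaks of 1894 and 2074 bp. In the replicated list it had 43.1, but for a much longer peak of 7947 bp. Hdac7, Hdac9 and Hdac11 had no promoter peak in either replicate. Rbbp4, a histone-binding subunit of Sin3 and NuRD, had folds of 33.7 and 32.3 and lay above Ncor1 in both replicates. Kdm1a, Mta1 and Rcor2, subunits of CoREST and NuRD complexes, had none in either replicate.

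**Figure D5:**
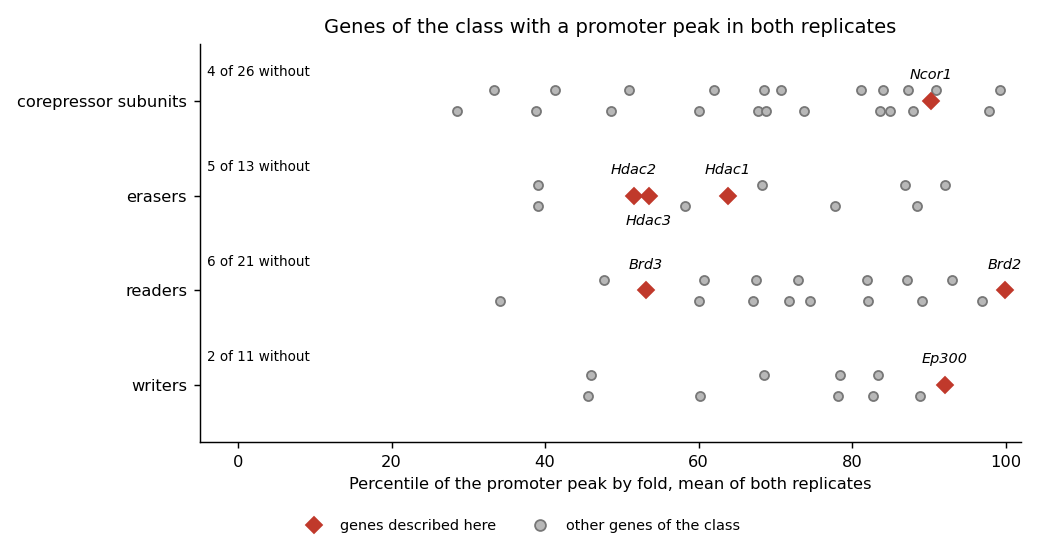
Points give the percentile of the promoter peak by fold, as the mean of both replicates, for the 54 other genes of the machinery with a peak in both (grey circles) and for the genes described here (red diamonds), in 4 classes. The numbers on the left count other genes of each class without a peak in both replicates, and Crebbp is not plotted. Brd2 has the highest percentile of the readers and Ep300 of the writers.

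Over the 8633 genes with a promoter peak in both replicates, the gene most like each of the 7 was found from the width, the percentile and the number of shared distal peaks. Brd2 and Ncor1 were most like H2-DMa and Pigl, which share their peaks. The gene most like Ep300 was Ptges, with a peak of 1769 bp in replicate 1 at percentile 91.3. For Brd3 it was Mia3, for Hdac1 Tmem41b, for Hdac2 Tdrd3 with a peak of 267 bp in replicate 1, and for Hdac3 Smg1.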

How the data were processed

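H3K27ac ChIP-seq was made from 10 ng of DNA per library in 2 replicates of unstimulated bone-marrow-derived macrophages. The authors deposited 4 peak lists on mm10: 1 for each replicate, 1 of replicated peaks and 1 from pooled reads, per the labels and the text files deposited with them. Column 7 of the deposited lists was read as the peak's fold, a ratio over background, and column 9 as its −log10 q-value, from the narrowPeak format that the deposited text files name and from the values. The caller, aligner and read depth are not given in the sources used here, so the precision of a single fold is unknown and its spread over the 2 replicates is given instead. All listed peaks were used, without a further threshold.

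Promoters (1 kb either side of any of 93513 distinct starts), widths, percentiles and distal peaks (overlap of at least 1 bp between replicates) were computed from GENCODE M21 in Python 3.11.15 with pandas 2.3.3, numpy 2.4.6 and pysam 0.24.0, and figures were drawn with matplotlib 3.10.9. Where a gene had several promoter peaks, the one with the highest fold stood for it. The scripts were tested on simulated peaks. No test between groups was possible with 1 group, so counts are set beside the same count over all protein-coding genes.

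The genes and the lists beside them were chosen with earlier results of these data known. The genes named are the 8, genes sharing their peaks or windows, the most alike gene of each, and in each class of the machinery those with no promoter peak in either replicate and the 2 whose fold was highest among replicated peaks. Some genes that this rule names are not reported here. The RefSeq promoter table matched 6 of the 8 genes, without Hdac1 and Hdac3. Alternatives changed the promoter window, the starts, the thresholds, the flank, the overlap, the peak list and the replicate.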

Additional observations from a re-analysis of the deposited data

How the results depend on the processing

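Of 54 alternative values of the summary counts, 48 stayed within 1.5 times the main value and 6 moved beyond it. With a width of at least 5 kb, 0 of the 8 genes had a wide promoter peak in both replicates, where Brd2 alone passed at 3 kb. The 10 shared distal peaks became 6 with 10 kb either side, 16 with 50 kb and 1 in the gene body alone, and the 5 genes with at least 1 became 3 with 10 kb and 1, Brd3, in the gene body alone. Counting distal peaks as replicate 2 peaks, an alternative chosen after seeing the data, gave 7. Ncor1 joined Ep300 and Brd2 in the upper 10% by fold in the replicated list, in the pooled list and without replicate 2, which made 3 genes. A promoter window of 2.5 kb also made 3 genes, with Brd3 as the third. Its intron peak, 1672 bp from the outermost start with percentiles of 92.9 and 92.6, then stood for its promoter. The middle rank of Brd3 and its distance from Brd2 thus depend on the promoter window. Of 129 alternative values for single genes, 103 stayed and 26 moved. Here a width or percentile stayed if within the SD of its 2 replicates, and a count if within 1.5 times. Leaving out a replicate cannot move a width or percentile beyond that SD, so those values had to stay. The replicated and pooled lists gave the same interval and fold for each of the promoter peaks compared, so they are not separate checks of these. Hdac3 had 2 distal peaks in place of 5 in the replicated list, in the pooled list and without replicate 1, Brd3 had 3 in the replicated list, and Ncor1 had 1 there and without replicate 2. With a threshold of 5 on −log10 q, percentiles were kept from the whole list. The lowest −log10 q of the promoter peaks compared was 19.4, so this threshold could not move their widths or percentiles either.

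No paired analysis was possible between groups because the replicates belong to 1 group; pairs of genes are given by their differences within each replicate. Depth was not given, so whether deeper sequencing would list a peak at Crebbp cannot be said from these lists. Both replicates share a donor entry, and 2 values give a rough SD. Peaks at Brd2, Hdac3 and Ncor1 are shared with H2-DMa, Rell2 and Pigl.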
